A study of Danio rerio with 45 samples.

Results

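The genes of the muscle contractile apparatus were followed in whole zebrafish embryos on 1-colour oligonucleotide arrays. Members were taken by name alone: every probe whose accession belonged to a troponin, tropomyosin (tpm1 to tpm4), numbered myosin heavy or light chain, myhz, myhc, mylpf, myosin-binding protein C, acta1, actc1 or muscle creatine kinase gene. This gave 153 probes of 63 genes, out of 43603 probes in all, of which 26421 carried 1 of 13633 gene symbols. A further 14 of the 77 gene symbols that fit these names had no matched probe. The names were chosen with earlier results of these data known. The names also take in genes outside the sarcomere. Among them are the mitochondrial creatine kinases ckmt1, ckmt2a and ckmt2b and the smooth muscle and non-muscle myosins myh11a and myh9a. Another is tnni3k, a kinase that is no troponin and was not well above background on any WT array. The light chains myl6, myl9a, myl9b, myl12.1 and myl12.2 and the tropomyosins tpm4a and tpm4b were also grouped here as smooth muscle or non-muscle. That grouping is textbook background, and in which cells of the embryo they are expressed was not tested.

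In striated muscle, thick filaments of myosin pull on thin filaments of actin, and the sarcomere shortens. Calcium starts this by binding troponin C, whereupon troponin I and troponin T let tropomyosin move aside on actin, while creatine kinase returns ATP to the myosin heads. Fast, slow and cardiac fibres use different genes for most of these proteins, and in the zebrafish embryo the somites and the heart tube both switch such genes on during the first day.

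MZdnmt3aa-/- embryos lack the de novo DNA methyltransferase Dnmt3aa from the egg onwards as well as in the zygote, and are labelled dnmt3aa-/-. The second mutant is dnmt3bb.2-/-, labelled without any statement on the maternal product, and the third genotype is wild-type (WT). Of each genotype 3 arrays were run at each of 5 stages (45 arrays): the 1–2 cell embryo, the shield stage, the 5-somite stage, and 1 and 2 days post fertilization (dpf). Each array held the total RNA of pooled whole embryos. The methods call the arrays biological replicates, but nothing says that the pools came from separate clutches, so p-values measure only the spread between these arrays. The 30 cardiac, 50 fast, 9 slow and 21 smooth or non-muscle probes were grouped by textbook fibre class, and 43 had no single class.

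Between 62.4% and 84.6% of probes on an array were well above background. The arrays labelled dnmt3aa-/- were all scanned on scan day 3, on 4 slides that held no other genotype, so genotype and scan day cannot be told apart in every comparison of that mutant. WT and dnmt3bb.2-/- arrays of a stage shared a scan day. The probe for dnmt3aa read higher, not lower, on the arrays labelled dnmt3aa-/- at all 5 stages (log2 difference 0.54 to 0.95, limma adjusted p = 0.0123 at 2 dpf and at most 0.00914 at the other stages). It measures transcript and not function, and where on the gene it lies relative to the mutation is not known here. The dnmt3bb.2 probe read lower on the dnmt3bb.2-/- arrays at all 5 stages (-0.80 to -2.68, adjusted p at most 0.00419). Single arrays stood apart: MZdnmt3aa-/- replicate 1 at 1–2 cell, and MZdnmt3aa-/- replicate 3 at 1 dpf. At 1–2 cell 121 members were well above background on that replicate 1, against 73 to 93 members on the WT arrays. The median member probe lay 1.12 log2 units above the WT mean on it, over the 58 members well above background on all arrays of that comparison, and 0.11 above and 0.01 below the WT mean on the other MZdnmt3aa-/- arrays.

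In WT the apparatus was switched on in steps, as the course of the brightest probe of each role shows. Values are log2 of the scaled signal, given as mean ± SD over 3 arrays, and are compared only within a probe. The cardiac and skeletal actin gene actc1b read 8.98 ± 0.76 (1–2 cell), 7.63 ± 0.46 (shield), 13.36 ± 0.06 (5-somite), 19.00 ± 0.03 (1 dpf) and 19.32 ± 0.05 (2 dpf). The fast myosin heavy chain myhz1.1 had 7.92 ± 1.46, 7.93 ± 0.17, 4.57 ± 0.27, 18.69 ± 0.04 and 19.31 ± 0.15 at the same stages. Thus actin was already well up at 5-somite, when the fast myosin still read low. Most myhz1.1 probes were not well above background on any WT array at 5-somite. Its reading below the earlier stages is therefore not taken as a fall. The fast troponin T gene tnnt3b was at 11.27 ± 0.05 at 5-somite and reached 19.47 ± 0.06 at 2 dpf. The fast troponin C gene tnnc2.2 had 11.09 ± 0.04 at 5-somite and 18.45 ± 0.11 at 2 dpf, while the fast troponin I gene tnni2a.4 was not well above background on any WT array at 5-somite and had 14.92 ± 0.01 at 1 dpf. So these tnnt3b and tnnc2.2 probes were measurable a stage before tnni2a.4. This does not hold for troponin I at large. Probes of the troponin I genes tnni1c and tnni2b.1 were well above background on at least 1 array at 5-somite, the requirement for testing.

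**Figure D1:**
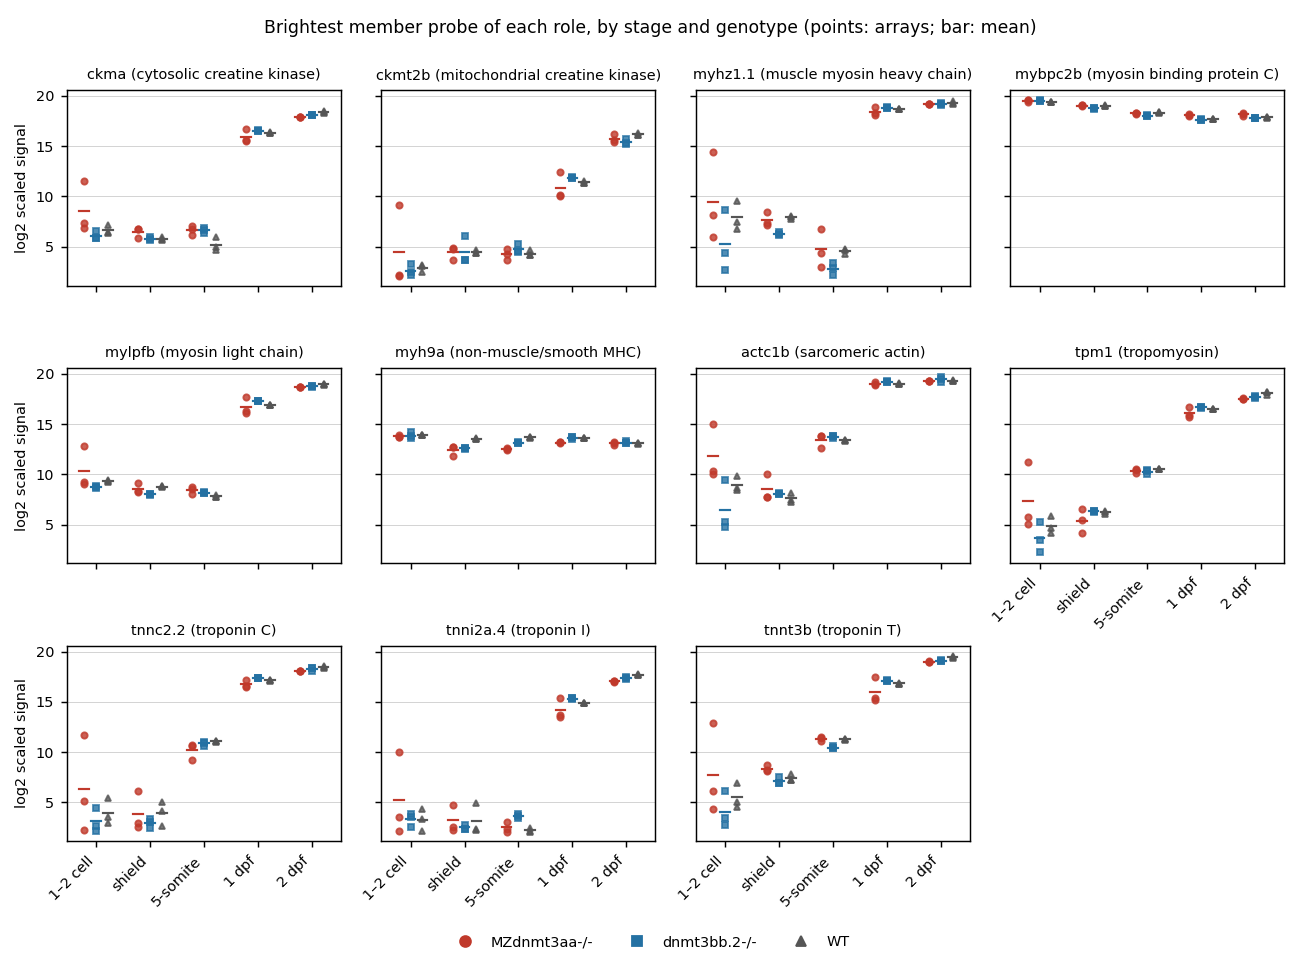
Log2 scaled signal of the brightest member probe of each role at the 5 stages, 1 panel a gene; points are arrays, bars are means of 3 arrays, and colours are MZdnmt3aa-/-, dnmt3bb.2-/- and WT. actc1b reached 13.36 in WT at 5-somite and 19.00 at 1 dpf, while myh9a stayed between 13.11 and 13.89 in WT at all stages.

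The creatine kinases came on late. The muscle gene ckma had 5.20 ± 0.68 in WT at 5-somite, then 16.32 ± 0.03 (1 dpf) and 18.38 ± 0.09 (2 dpf). The sarcomeric mitochondrial gene ckmt2b was later still, with 11.41 ± 0.07 at 1 dpf and 16.17 ± 0.10 at 2 dpf. The ubiquitous mitochondrial gene ckmt1 took another course, with 7.14 ± 0.19 at 1–2 cell and 13.48 ± 0.05 at shield, and 14.31 ± 0.06 to 14.73 ± 0.22 thereafter. The light chain gene myl13 had 12.36 ± 0.22 at 5-somite and 18.50 ± 0.05 at 2 dpf, and the fast regulatory light chain mylpfb had 7.84 ± 0.11 and 18.93 ± 0.05. The slow troponin C gene tnnc1b had 6.57 ± 0.22, 15.66 ± 0.03 and 16.28 ± 0.09 from 5-somite to 2 dpf. The non-muscle heavy chain myh9a moved least, between 13.11 ± 0.05 and 13.89 ± 0.03 over the 5 stages.

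The tests of neighbouring stages in WT gave the same order. A member was called where its adjusted p was 0.01 or less (limma, Benjamini-Hochberg over all probes). Calls were 42 higher and 18 lower of 107 tested at shield against 1–2 cell (of all probes tested 83.8% were called, 35.8% higher and 48.0% lower) and 57 higher and 24 lower of 107 at 5-somite against shield (of all probes 76.6%, 44.4% higher and 32.2% lower). At 1 dpf against 5-somite 125 rose and 8 fell of 145 (of all probes 73.2% were called, 37.0% higher and 36.2% lower), with a median log2 change of 5.52 over the tested members and 0.00 over all probes. At 2 dpf against 1 dpf 101 rose and 18 fell of 151 (of all probes 56.5%, 30.9% higher and 25.6% lower), median 1.32 against 0.07 over all probes. A probe could be tested through its brighter stage alone, which favours a change in that direction. Over members well above background on all arrays of both stages, the 1 dpf step had 71 higher and 8 lower of 88, median 3.49. The 2 dpf step had 92 higher and 18 lower of 140, median 1.22. The 5-somite step had 43 higher and 16 lower of 74, and the shield step 30 higher and 16 lower of 68. At 5-somite against shield the light chain myl10 rose at least 1878-fold and myl13 at least 595-fold, bounds set by the lowest signal well above background. At 1 dpf against 5-somite the bound was 12752-fold for the fast myosin myhz2, 10617-fold for myhz1.1, 10236-fold for ckmb and 6662-fold for the fast light chain mylpfa. The genes that rose most by 2 dpf were other isoforms, the troponin I gene tnni2b.2 by 7.41, tnni4a by 5.35 and ckmt2b by 4.87 on the log2 scale. Some members fell as others rose: at 2 dpf tnni2b.1 fell by 3.53, tnnt2c by 3.40 and the non-muscle light chain myl6 by 1.32. WT arrays at 5-somite were scanned on another day than WT arrays of the other stages, so both steps to and from 5-somite cannot be told apart from scan day. Quantile normalization moved the median of all probes at the 1 dpf step to -0.25, and normexp to -0.13, with the members' directions unaltered for the genes named here.

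Different probes of a gene did not always run together. For the fast myosin-binding protein gene mybpc2b, probe A_15_P734621 was at its highest, 19.39 ± 0.03, in WT at 1–2 cell and had 17.85 ± 0.09 at 2 dpf, while probe A_15_P196131 had 7.16 at 1–2 cell and 14.30 at 2 dpf. 40 genes had more than 1 probe, and the number of genes with probes called in opposite directions was 3 at the shield step, 6 at the 5-somite step and 2 at each later step. Genes of these families have close paralogs, and whether a probe also binds a paralog was not tested.

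At 1 dpf the heart genes tnnc1a, myl7 and tnnt2a were lower in MZdnmt3aa-/- embryos than in WT, and in dnmt3bb.2-/- embryos many fast skeletal genes were slightly higher than in WT while myl4 and tnnt2a were lower. Whether the mutants differed from each other was not tested at any stage. In whole embryos, fewer cells of a type and less RNA per cell cannot be told apart. Both comparisons use the same WT arrays. Of 143 members tested in each, MZdnmt3aa-/- had 5 higher and 12 lower (11.9%, against 20.8% of all 37914 probes called, 4152 of them higher, and 9.81% called lower), and dnmt3bb.2-/- had 54 higher and 23 lower (53.8%, against 46.9% of all probes, 22.8% higher and 24.1% lower). The members' share called was thus below the background in MZdnmt3aa-/- and near it in dnmt3bb.2-/-. The median log2 fold change over the tested members was -0.40 in MZdnmt3aa-/- (31 above 0 and 112 below, and -0.01 over all probes) and 0.15 in dnmt3bb.2-/- (92 above 0 and 51 below, and -0.02 over all probes).

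**Figure D2:**
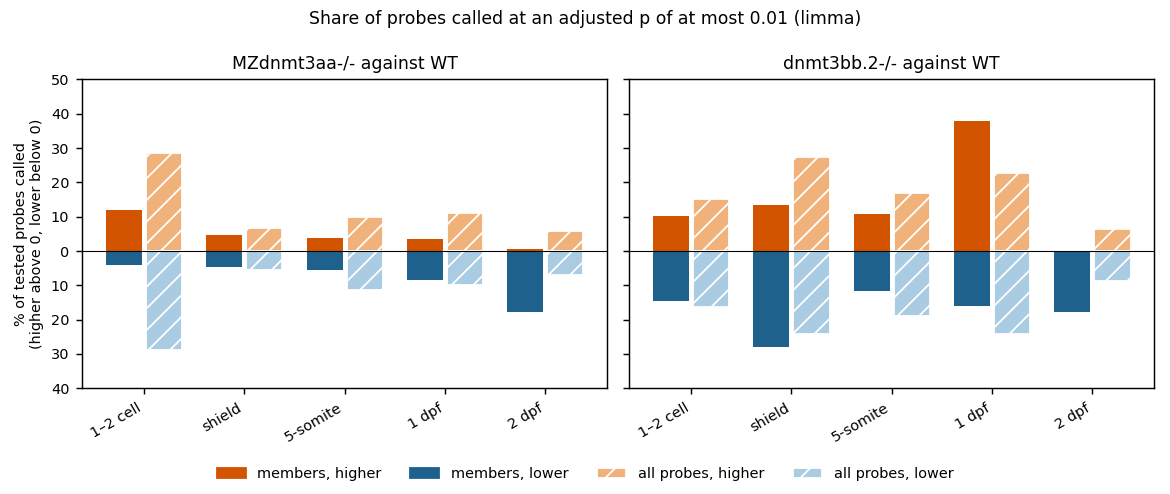
Percent of tested probes called higher (drawn upwards) and lower (drawn downwards) than WT at each stage, for MZdnmt3aa-/- and dnmt3bb.2-/-; solid bars are members, hatched bars are all probes. At 1 dpf 53.8% of members were called in dnmt3bb.2-/- and 11.9% in MZdnmt3aa-/-, and at 2 dpf nearly all member calls of both mutants were lower.

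The MZdnmt3aa-/- count at 1 dpf depended on 1 array. Replicate 3 lay near or above WT for the fast genes, with a median of 0.42 log2 units above the WT mean over the fast probes, where replicates 1 and 2 lay 0.77 and 0.65 below. Over the cardiac probes all 3 arrays were below WT, by 0.943, 1.095 and 0.342. Without replicate 3, 101 members were called (12 higher and 89 lower, 70.6%, against 43% of all probes), with 24 of 30 cardiac and 37 of 46 fast probes lower. Without replicate 2, 9 were called (6.29%, against 10.7% of all probes), and without replicate 1, 13 (9.09%, against 13.8%). Without any one WT array 4 were called (2.8% to 2.82%, against 6.37% to 6.89% of all probes). Cardiac probes called lower numbered 6 without replicate 2, 8 without replicate 1 and 2 without any one WT array. In these settings the members' share lay below that of all probes. The median over the members was -0.53 without replicate 3. Replicate 3 also had the highest timing index of these arrays, given below, and its part in the result was not tested.

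The cardiac troponin C gene tnnc1a was the lowest of the called members in MZdnmt3aa-/- at 1 dpf. Its probe A_15_P183171 had 7.94, 7.55 and 7.69 on the MZdnmt3aa-/- arrays, 9.50, 9.79 and 9.72 on the dnmt3bb.2-/- arrays and 9.38, 9.54 and 9.59 on the WT arrays. The MZdnmt3aa-/- arrays lay apart from all WT arrays, and the dnmt3bb.2-/- arrays overlapped them. The log2 fold change was -1.77 (SE 0.12, limma adjusted p = 0.000524) in MZdnmt3aa-/-, and 0.17 without a call in dnmt3bb.2-/-. A further tnnc1a probe (A_15_P118352) fell by 1.07 in MZdnmt3aa-/- (adjusted p = 0.0011).

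The cardiac regulatory light chain myl7 (A_15_P466750) had 12.095, 11.70 and 11.99 in MZdnmt3aa-/-, 12.71, 12.86 and 12.77 in dnmt3bb.2-/-, and 12.90, 12.91 and 12.85 in WT. It fell by 0.96 in MZdnmt3aa-/- (SE 0.11, adjusted p = 0.00243) and differed by -0.11 without a call in dnmt3bb.2-/-. Its other probe fell by 0.93 in MZdnmt3aa-/-. The cardiac troponin T gene tnnt2a, which the embryonic heart needs to beat, was lower in both mutants: A_15_P211696 had 12.03, 11.49 and 11.93 in MZdnmt3aa-/-, 11.57, 11.65 and 11.64 in dnmt3bb.2-/-, and 12.71, 12.79 and 12.81 in WT. No mutant array reached the lowest WT array, with log2 fold changes of -0.95 (adjusted p = 0.00659) in MZdnmt3aa-/- and -1.15 (SE 0.04, adjusted p = 1.77e-05) in dnmt3bb.2-/-.

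The essential light chain myl4, the atrial one in mammals, was called in dnmt3bb.2-/- alone at 1 dpf. A_15_P629371 had 7.59, 7.38 and 6.997 in MZdnmt3aa-/-, 5.83, 5.62 and 5.79 in dnmt3bb.2-/-, and 7.80, 7.84 and 7.97 in WT. All mutant arrays were below all WT arrays, and the dnmt3bb.2-/- arrays read lowest. The fold change was -0.54 without a call in MZdnmt3aa-/- (adjusted p = 0.0474) and -2.12 in dnmt3bb.2-/- (SE 0.08, adjusted p = 1.55e-05). A second myl4 probe gave -0.51 without a call in MZdnmt3aa-/- and -1.98 in dnmt3bb.2-/-.

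Some probes of heart myosin heavy chains were called lower in dnmt3bb.2-/- at 1 dpf, and none was called in MZdnmt3aa-/-. The atrial gene myh6 had 10.45, 9.74 and 9.91 in MZdnmt3aa-/-, 10.05, 10.06 and 10.19 in dnmt3bb.2-/-, and 10.63, 10.65 and 10.58 in WT, which is -0.59 without a call and -0.52 with one (adjusted p = 0.000426 in dnmt3bb.2-/-). The cardiac-type gene myh7l (A_15_P143026) had 8.78, 8.18 and 9.94 in MZdnmt3aa-/-, 10.48, 10.70 and 10.70 in dnmt3bb.2-/-, and 10.997, 11.10 and 10.99 in WT. The MZdnmt3aa-/- arrays were the lowest and the most scattered, and the mean difference of -2.06 did not pass (adjusted p = 0.0169), while -0.40 in dnmt3bb.2-/- did (adjusted p = 0.00504). In dnmt3bb.2-/- the myh7l probes A_15_P285778 and A_15_P737991 were called lower too. Its remaining myh7l probes and the ventricular gene myh7 were not called.

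By class, 7 of 30 cardiac probes were called lower and none higher in MZdnmt3aa-/- at 1 dpf (median -0.83, with 29 of 30 below 0, and 23 lower with no overlap between the arrays of MZdnmt3aa-/- and WT, as were 28.3% of all probes). Fast probes had 1 higher and 1 lower call of 46 (median -0.36), slow probes 2 lower of 8 (median -0.25), and smooth or non-muscle probes 3 higher and 1 lower of 21 (median -0.12). In dnmt3bb.2-/- 26 of 46 fast probes were called higher and 3 lower (median 0.24, against 22.8% of all probes called higher). There 2 of 30 cardiac probes were higher and 9 lower (median -0.12, against 24.1% of all probes called lower). The red blood cell markers moved with the cardiac genes in MZdnmt3aa-/- at 1 dpf: 8 of 12 marker probes were called lower and none higher, where 9.81% of all probes were called lower. The log2 of the summed level of these markers was 17.27 to 18.71, against 20.34 to 20.36 in WT, and its part in the result was not tested. In dnmt3bb.2-/- that sum was 20.37 to 20.47. Lens markers summed to 14.20 to 17.14 in MZdnmt3aa-/-, 15.13 to 15.42 in dnmt3bb.2-/- and 15.84 to 15.90 in WT at 1 dpf. Epidermis markers summed to 20.50 to 20.83 in MZdnmt3aa-/-, 20.49 to 20.51 in dnmt3bb.2-/- and 20.77 to 20.79 in WT, and neuron markers to 15.26 to 15.87 in MZdnmt3aa-/-, 15.37 to 15.40 in dnmt3bb.2-/- and 15.48 to 15.49 in WT. These 3 sums lay below WT on all dnmt3bb.2-/- arrays and on both sides of WT in MZdnmt3aa-/-, and their part in the results was not tested. The marker lists were chosen with earlier results of these data known, so the marker counts are no independent support.

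**Figure D3:**
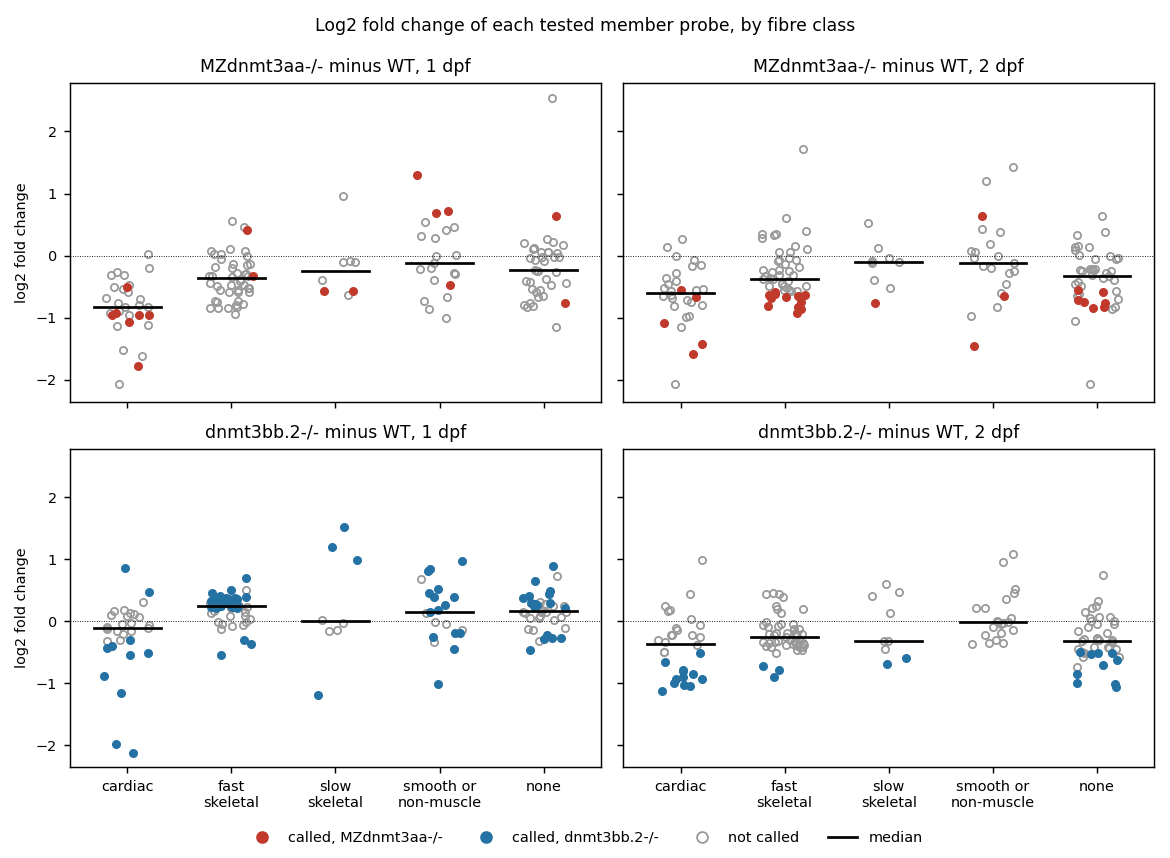
Log2 fold change against WT of every tested member probe by fibre class, in 4 panels (MZdnmt3aa-/- and dnmt3bb.2-/-, at 1 and 2 dpf); filled points passed the test and the line is the class median. The cardiac median was -0.83 in MZdnmt3aa-/- at 1 dpf, and the fast median was 0.24 in dnmt3bb.2-/- at 1 dpf and -0.25 at 2 dpf.

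The fast genes that rose in dnmt3bb.2-/- at 1 dpf moved by small and even steps. tnnt3b (A_15_P102408), the brightest troponin T probe, had 15.20, 15.34 and 17.43 in MZdnmt3aa-/-, 17.07, 17.10 and 17.18 in dnmt3bb.2-/-, and 16.81, 16.86 and 16.83 in WT. The dnmt3bb.2-/- arrays all lay above the WT arrays (0.29, adjusted p = 0.00194), and the MZdnmt3aa-/- arrays lay on both sides of them (-0.84, SE 0.62, adjusted p = 0.327). The muscle creatine kinase ckmb (A_15_P743566) had 10.95, 11.001 and 12.04 in MZdnmt3aa-/-, 12.37, 12.36 and 12.48 in dnmt3bb.2-/-, and 12.16, 12.08 and 12.13 in WT. It rose by 0.28 in dnmt3bb.2-/- (adjusted p = 0.00312), and in MZdnmt3aa-/- replicates 1 and 2 were low while replicate 3 was close to WT (-0.79, adjusted p = 0.0954).

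Both fast regulatory light chain genes, mylpfa and mylpfb, rose at all 5 of their probes in dnmt3bb.2-/- at 1 dpf, by 0.22 to 0.50. The fast troponin I gene tnni2a.4 rose by 0.70 at A_15_P562612 (15.12, 15.10 and 15.09 in dnmt3bb.2-/-, against 14.36, 14.42 and 14.41 in WT). The fast heavy chain myhz2 did not pass in either mutant (0.08 in MZdnmt3aa-/- and -0.12 in dnmt3bb.2-/-). Cytosolic creatine kinase had 5 of 7 probes higher and mitochondrial creatine kinase 4 of 7 in dnmt3bb.2-/-. All 12 troponin T probes were called in that mutant, 7 higher and 5 lower, and tropomyosin had 8 higher and 1 lower of 17. Of all probes 46.9% were called in that mutant at 1 dpf, 22.8% higher and 24.1% lower. The same role groups had no creatine kinase call in MZdnmt3aa-/-, though all 7 cytosolic probes had a mean below WT (median -0.55), and 3 lower calls of 12 for troponin T, with all 12 below WT (median -0.64).

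Slow-type and developmental troponins gave the largest called rises of dnmt3bb.2-/- at 1 dpf. tnnt2c, a tnnt2-family troponin T gene, had 12.08, 12.001 and 11.70 in MZdnmt3aa-/-, 13.83, 13.88 and 13.81 in dnmt3bb.2-/-, and 12.36, 12.06 and 12.55 in WT at A_15_P688821. The dnmt3bb.2-/- arrays were all above WT (1.52, SE 0.13, adjusted p = 0.000243), and the MZdnmt3aa-/- arrays overlapped WT (-0.40 without a call). At A_15_P120865 the difference was 0.98 in dnmt3bb.2-/- (adjusted p = 4.68e-05) and -0.63 without a call in MZdnmt3aa-/-. The troponin I gene tnni1d had 9.23, 9.68 and 10.14 in MZdnmt3aa-/-, 9.998, 9.995 and 9.79 in dnmt3bb.2-/-, and 8.82, 8.68 and 8.69 in WT. Every mutant array was above every WT array, by 0.95 without a call in MZdnmt3aa-/- (adjusted p = 0.0259) and by 1.1996 in dnmt3bb.2-/- (SE 0.07, adjusted p = 8.12e-05).

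The slow troponin T gene tnnt1 went the other way, with 6.68, 6.63 and 6.83 in MZdnmt3aa-/-, 6.19, 5.89 and 6.19 in dnmt3bb.2-/-, and 7.28, 7.25 and 7.32 in WT. It was lower in MZdnmt3aa-/- by 0.57 (-0.57, adjusted p = 0.00324) and in dnmt3bb.2-/- by more (-1.19, SE 0.09, adjusted p = 0.000179). So slow-type troponin genes moved in both directions, and slow probes as a class had 3 higher and 1 lower of 8 in dnmt3bb.2-/- with a median of 0.00. Of all probes 22.8% were called higher and 24.1% lower in that mutant.

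Among the myosin light chains of smooth and non-muscle cells, probes of the regulatory gene myl9b disagreed. A_15_P746107 had 10.98, 10.97 and 10.65 in MZdnmt3aa-/-, 10.26, 10.40 and 10.47 in dnmt3bb.2-/-, and 9.49, 9.61 and 9.58 in WT at 1 dpf, higher in both mutants (1.31 and 0.82). A_15_P741026 had 10.98, 10.87 and 10.60 in MZdnmt3aa-/-, 9.02, 9.15 and 9.10 in dnmt3bb.2-/-, and 10.14, 10.002 and 10.15 in WT, higher in MZdnmt3aa-/- (0.72) and lower in dnmt3bb.2-/- (-1.01, adjusted p = 6.8e-05). Its paralog myl9a rose by 0.97 in dnmt3bb.2-/- at A_15_P153741, with 11.10, 11.13 and 11.08 in dnmt3bb.2-/-, against 10.16, 10.07 and 10.17 in WT.

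Other genes whose probes disagreed at 1 dpf were tpm3 in MZdnmt3aa-/- and mybpc3 in dnmt3bb.2-/-. The tropomyosin gene tpm3 was higher at A_15_P753008 (0.63, adjusted p = 0.00156) and lower at A_15_P724906 (-0.76, adjusted p = 0.00879). The cardiac myosin-binding protein gene mybpc3 was higher at A_15_P367160 (0.85) and A_15_P730656 (0.47) and lower at A_15_P420405 (-0.43), with its other tested probes not called. Other tropomyosin calls at 1 dpf were tpm4b, higher by 0.83 in dnmt3bb.2-/-, and tpm1, higher at 2 of its probes in dnmt3bb.2-/- by 0.89 and 0.65, while tpm4a (A_15_P117338) was higher in MZdnmt3aa-/- by 0.69 and in dnmt3bb.2-/- by 0.38.

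By 2 dpf both mutants had nearly all of their called members lower than WT. MZdnmt3aa-/- had 1 higher and 27 lower of 152 tested (18.4%, against 12.6% of all probes called, 5.69% higher and 6.90% lower), with a median of -0.37 and -0.06 over all probes. dnmt3bb.2-/- had 0 higher and 27 lower of 151 (17.9%, against 14.9% of all probes, 6.31% higher and 8.61% lower), with a median of -0.28 and -0.06 over all probes. At an unadjusted p under 0.05 by limma, 9 members were higher and 74 lower in dnmt3bb.2-/-. In MZdnmt3aa-/- 121 of 152 and in dnmt3bb.2-/- 114 of 151 tested members lay below WT on average, and 93 and 87 had no overlap with WT in that direction, as had 27.7% of all probes in MZdnmt3aa-/- and 30.1% in dnmt3bb.2-/-. Per array the members' median lay 0.39, 0.41 and 0.32 below the WT mean in MZdnmt3aa-/-, and 0.25, 0.29 and 0.36 below it in dnmt3bb.2-/-, so no single array set the direction.

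**Figure D4:**
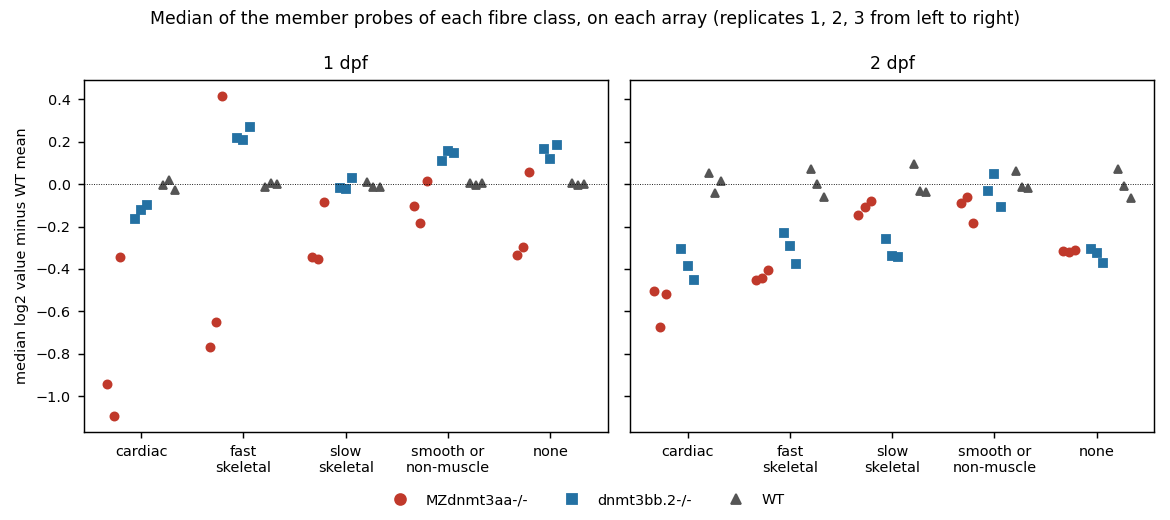
Median over the member probes of each fibre class on each array, as log2 difference from the WT mean of the stage, at 1 and 2 dpf; each point is an array, with the mutants left of WT. At 2 dpf the fast median was -0.45, -0.44 and -0.40 on the MZdnmt3aa-/- arrays and -0.23, -0.29 and -0.38 on the dnmt3bb.2-/- arrays, while at 1 dpf MZdnmt3aa-/- replicate 3 was at 0.42.

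The counts at 2 dpf moved with single arrays, though the medians kept their sign. In MZdnmt3aa-/- 0 members were called without WT replicate 1 (7 higher and 67 lower at an unadjusted limma p under 0.05) and 0 without WT replicate 2 (7 higher and 72 lower), 15 without WT replicate 3, and 3, 2 and 39 without MZdnmt3aa-/- replicates 1, 2 and 3. In dnmt3bb.2-/- 3, 2 and 13 were called without WT replicates 1, 2 and 3, and 11, 4 and 16 without dnmt3bb.2-/- replicates 1, 2 and 3. The share of all probes called moved too, to between 3.09% and 17.2% in MZdnmt3aa-/- and between 5.64% and 11.3% in dnmt3bb.2-/-. On the slide that held all 3 dnmt3bb.2-/- arrays and 1 WT array of 2 dpf, the median over 147 members was -0.23, with 114 below 0, and on the slide shared at 1 dpf (1 dnmt3bb.2-/- array and 3 WT arrays) it was 0.13 over 140 members, with 86 above 0. With slide as a fixed block in the limma fit, which was not planned beforehand, 45 members were called in dnmt3bb.2-/- at 1 dpf and 1 at 2 dpf. Such a fit compares the genotypes only within the shared slide. That slide held 1 dnmt3bb.2-/- array at 1 dpf and 1 WT array at 2 dpf. With slide as a random block 17 members were called in dnmt3bb.2-/- at 2 dpf.

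Creatine kinase and fast-fibre genes were among the calls of MZdnmt3aa-/- at 2 dpf, though the lowest called probes were those of myh7l and myh11a, given below. ckmb (A_15_P743566) had 13.35, 13.42 and 13.39 in MZdnmt3aa-/-, 13.92, 13.91 and 13.85 in dnmt3bb.2-/-, and 14.28, 14.19 and 14.21 in WT. The 3 genotypes did not overlap, with -0.84 in MZdnmt3aa-/- (SE 0.08, adjusted p = 0.0016) and -0.33 without a call in dnmt3bb.2-/- (adjusted p = 0.0259). ckma (A_15_P417035) had 15.02, 15.02 and 14.98 in MZdnmt3aa-/-, 15.53, 15.50 and 15.45 in dnmt3bb.2-/-, and 15.86, 15.76 and 15.69 in WT, lower by 0.77 in MZdnmt3aa-/- (-0.77, adjusted p = 0.0026) and not called in dnmt3bb.2-/- (-0.28). In all, 4 of 7 cytosolic creatine kinase probes were called lower in MZdnmt3aa-/- and 0 of 7 in dnmt3bb.2-/-, where the median was -0.32. Of all probes 6.90% were called lower in MZdnmt3aa-/- and 8.61% in dnmt3bb.2-/-.

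tnni2a.4 (A_15_P101048), the fast inhibitory troponin, had 15.73, 15.80 and 15.90 in MZdnmt3aa-/-, 16.45, 16.39 and 16.27 in dnmt3bb.2-/-, and 16.85, 16.76 and 16.58 in WT. It was lower in MZdnmt3aa-/- (-0.92, SE 0.11, adjusted p = 0.00292) and not called in dnmt3bb.2-/- (-0.36, adjusted p = 0.0474). A second tnni2a.4 probe was lower in MZdnmt3aa-/- (-0.66) and its remaining probe was not (0.06). tnnt3b (A_15_P102408) had 18.92, 18.97 and 19.07 in MZdnmt3aa-/-, 19.18, 19.07 and 19.05 in dnmt3bb.2-/-, and 19.54, 19.47 and 19.41 in WT, all mutant arrays below all WT arrays, though neither difference passed (-0.49, adjusted p = 0.0111, and -0.37, adjusted p = 0.0224).

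Among fast myosin heavy chains, MZdnmt3aa-/- had myhz2 and the myhz1.1 probe A_15_P706091 called lower. The other myhz1.1 probes, myhz1.2 and myhc4 were not called. myhz2 had 18.08, 18.16 and 18.04 in MZdnmt3aa-/-, 18.28, 18.50 and 18.38 in dnmt3bb.2-/-, and 18.79, 18.84 and 18.73 in WT (-0.69, adjusted p = 0.00342, and -0.40 without a call). mybpc2b was lower in both mutants at A_15_P196131, with 13.50, 13.62 and 13.19 in MZdnmt3aa-/-, 13.56, 13.31 and 13.33 in dnmt3bb.2-/-, and 14.31, 14.33 and 14.26 in WT (-0.86 and -0.90). At its early probe A_15_P734621 it was not called in either (0.33 and -0.05). Its probe A_15_P756682 was called lower in dnmt3bb.2-/- alone. Of the 16 actin probes 5 were lower in MZdnmt3aa-/-, at the skeletal genes acta1a (-0.72) and acta1b (-0.82 and -0.76) and at actc1a (-0.55) and actc1b (-0.59), and 0 of 16 were called in dnmt3bb.2-/- (median -0.27). The share of all probes called lower was 6.90% in MZdnmt3aa-/- and 8.61% in dnmt3bb.2-/-.

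As a class, 12 of 50 fast probes were lower in MZdnmt3aa-/- at 2 dpf (median -0.37, with 39 of the 50 below 0 and 34 lower with no overlap between the arrays of MZdnmt3aa-/- and WT, as were 27.7% of all probes) and 3 of 49 in dnmt3bb.2-/- (median -0.25). Of all probes 6.90% were called lower in MZdnmt3aa-/- and 8.61% in dnmt3bb.2-/-. The cardiac class had 5 of 30 lower in MZdnmt3aa-/- (median -0.60) and 12 of 30 in dnmt3bb.2-/- (median -0.36). Without single arrays, cardiac calls in dnmt3bb.2-/- numbered 2, 1 and 6 lower without WT replicates 1, 2 and 3, and 7, 3 and 7 lower without dnmt3bb.2-/- replicates 1, 2 and 3. Fast calls in MZdnmt3aa-/- numbered 0, 0 and 7 lower without WT replicates 1, 2 and 3, and 0, 0 and 13 without MZdnmt3aa-/- replicates 1, 2 and 3. Cardiac calls in MZdnmt3aa-/- numbered 0, 0 and 2 lower, and 2, 2 and 5, in the same order.

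The heart-type heavy chain myh7l was called lower in both mutants at 2 dpf, though not at all of its probes. At A_15_P143026 it had 11.69, 10.95 and 11.38 in MZdnmt3aa-/-, 11.70, 11.87 and 12.14 in dnmt3bb.2-/-, and 12.96, 12.89 and 12.95 in WT. Both mutants lay apart from WT, with -1.59 (SE 0.19, adjusted p = 0.00304) in MZdnmt3aa-/- and -1.03 (SE 0.13, adjusted p = 0.00261) in dnmt3bb.2-/-. Of the other myh7l probes, A_15_P285778 was lower in both (-1.09 and -1.05) and A_15_P737991 was lower in both (-1.43 and -0.79), while A_15_P134126 was not called in either (0.26 and -0.50). A_15_P734136 was called lower in dnmt3bb.2-/- alone, and A_15_P657681 was not called in either mutant.

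Atrial and ventricular heavy chains were called lower in dnmt3bb.2-/- at 2 dpf and not in MZdnmt3aa-/-, which does not show that the mutants differed. myh6 had 10.20, 9.67 and 9.52 in MZdnmt3aa-/-, 8.84, 9.31 and 9.44 in dnmt3bb.2-/-, and 10.44, 10.33 and 10.19 in WT. The dnmt3bb.2-/- arrays lay below WT (-1.12, SE 0.17, adjusted p = 0.0054) and MZdnmt3aa-/- replicate 1 overlapped it (-0.52 without a call). The ventricular gene myh7 had 10.32, 9.91 and 10.89 in MZdnmt3aa-/-, 10.58, 10.76 and 10.44 in dnmt3bb.2-/-, and 11.71, 11.49 and 11.37 in WT, with -1.15 not called (adjusted p = 0.0195) and -0.93 called (adjusted p = 0.00411).

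myl4 (A_15_P629371) had 7.79, 7.14 and 8.69 in MZdnmt3aa-/-, 8.66, 9.13 and 9.08 in dnmt3bb.2-/-, and 10.17, 9.95 and 9.73 in WT at 2 dpf. The MZdnmt3aa-/- mean was the lower of the mutants, yet its -2.08 did not pass (adjusted p = 0.0113) and -0.99 in dnmt3bb.2-/- did (adjusted p = 0.0083). tnnt2a (A_15_P721531) had 11.25, 10.58 and 11.52 in MZdnmt3aa-/-, 10.97, 11.05 and 10.97 in dnmt3bb.2-/-, and 12.11, 11.96 and 11.74 in WT, again with no overlap (-0.82, adjusted p = 0.0533, and -0.94, adjusted p = 0.0026). The troponin T gene tnnt2e was lower in both mutants, with 10.61, 10.66 and 10.79 in MZdnmt3aa-/-, 10.52, 10.64 and 10.35 in dnmt3bb.2-/-, and 11.66, 11.42 and 11.47 in WT (-0.83 and -1.01).

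**Figure D5:**
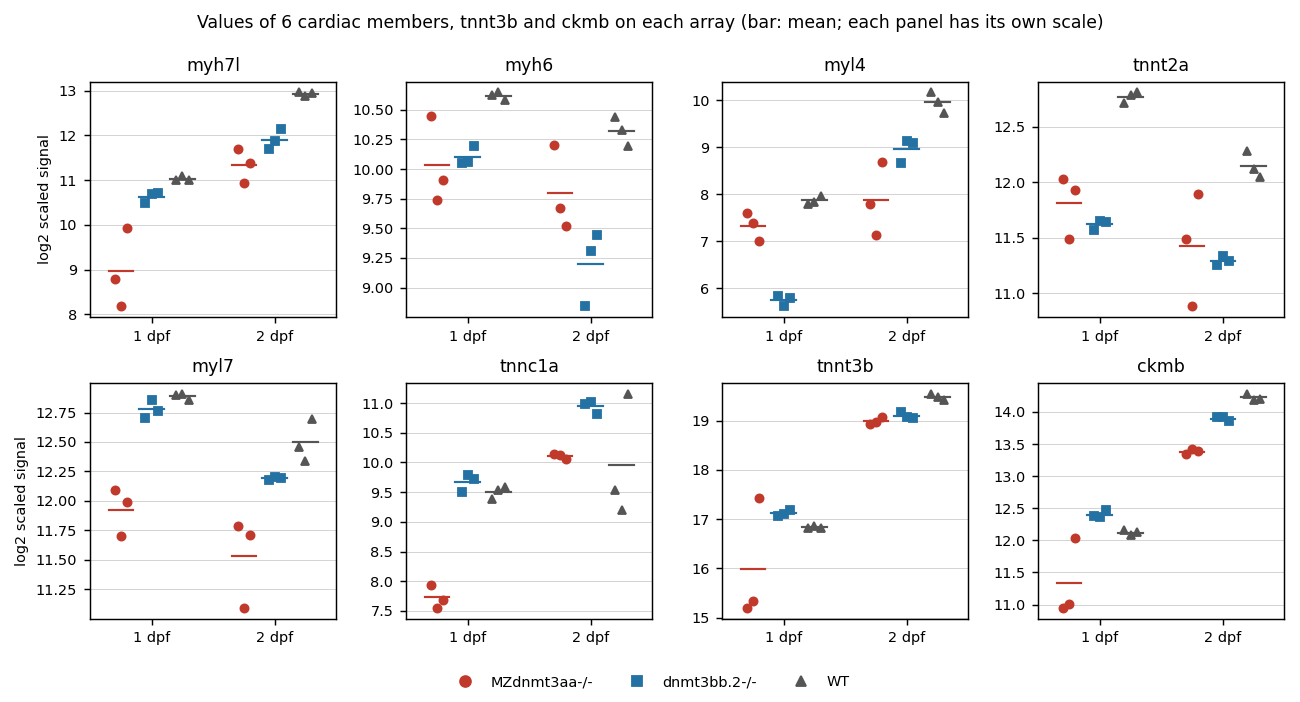
Log2 scaled signal of myh7l, myh6, myl4, tnnt2a, myl7, tnnc1a, tnnt3b and ckmb on each array at 1 and 2 dpf, each gene on its own scale; points are arrays and bars are means of 3, with MZdnmt3aa-/-, dnmt3bb.2-/- and WT from left to right. For tnnt3b at 1 dpf, MZdnmt3aa-/- replicate 3 was at 17.43, above all WT arrays, where replicates 1 and 2 were at 15.20 and 15.34.

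tnnc1a, the lowest called member of MZdnmt3aa-/- at 1 dpf, could not be read at 2 dpf in the same way, since WT itself was uneven: A_15_P183171 had 10.15, 10.12 and 10.06 in MZdnmt3aa-/-, 10.99, 11.03 and 10.82 in dnmt3bb.2-/-, and 9.53, 9.21 and 11.15 in WT. WT replicates 1 and 2 lay on 1 slide, and WT replicate 3 lay on the slide of the dnmt3bb.2-/- arrays, near their values. At 1 dpf the MZdnmt3aa-/- and WT arrays shared no slide, so slide and genotype cannot be told apart for this probe. The sarcomeric mitochondrial creatine kinase ckmt2b (A_15_P725051) had 12.01, 12.18 and 12.69 in MZdnmt3aa-/-, 11.75, 11.91 and 12.35 in dnmt3bb.2-/-, and 13.15, 13.06 and 12.79 in WT. All mutant arrays were below all WT arrays, with -0.71 not called in MZdnmt3aa-/- and -0.998 called in dnmt3bb.2-/- (SE 0.18, adjusted p = 0.00941), and 3 of 8 mitochondrial creatine kinase probes were called lower in dnmt3bb.2-/- and 0 of 8 in MZdnmt3aa-/- (median -0.68). Among all probes 8.61% were called lower in dnmt3bb.2-/- and 6.90% in MZdnmt3aa-/-.

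Outside striated muscle, myh11a, the smooth muscle heavy chain, was lower in MZdnmt3aa-/- at 2 dpf at A_15_P658511, with 4.34, 4.34 and 5.18, against 6.27, 6.03 and 5.92 in WT (-1.45, adjusted p = 0.00946), and was well above background on only 1 of the MZdnmt3aa-/- arrays. It had 6.31, 6.59 and 6.68 in dnmt3bb.2-/- and was not called there. The non-muscle chain myh9a (A_15_P535132) was the 1 member called higher in MZdnmt3aa-/- at 2 dpf (0.63, adjusted p = 0.00743). tnni4a was lower in dnmt3bb.2-/- at A_15_P659241, with 6.18, 5.71 and 5.52, against 6.95, 6.86 and 6.81 in WT (-1.07), and was not called at its other probes.

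The change between stages was tested as a difference of effects. In dnmt3bb.2-/- 55 of 151 members changed their effect from 1 dpf to 2 dpf, 5 upwards and 50 downwards (of all probes 9.00% were called, 3.71% upwards and 5.29% downwards). Of 49 fast probes 23 changed downwards and 0 upwards, among them the 4 probes of tnnt3b (-0.66 to -0.87). The lowest values were those of ckmt2b (A_15_P725051, -1.38) and myl9a (A_15_P153741, -1.19), and tnnt2c (A_15_P688821) changed by -0.91, while myl4 (A_15_P629371, 1.13) and tnnt1 (0.75) went upwards. The count was 36, 30 and 33 without WT replicates 1, 2 and 3 of 1 dpf, 36 and 31 without dnmt3bb.2-/- replicates 2 and 3 of 1 dpf, and between 39 and 66 without each other array. In MZdnmt3aa-/- 0 of 152 members changed their effect between these stages by limma (1.03% of all probes called), with 6 higher and 10 lower at an unadjusted p under 0.05. Without MZdnmt3aa-/- replicate 3 of 1 dpf that count was 16, without WT replicate 3 of 2 dpf 1, and without MZdnmt3aa-/- replicate 3 of 2 dpf 3. With arrays left out, the share of all probes called is not given here, so these counts show only how far calls moved.

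From 5-somite to 1 dpf the effect changed at 10 of 145 members in MZdnmt3aa-/-, 7 upwards and 3 downwards (of all probes 9.93%, 5.89% upwards and 4.04% downwards). In dnmt3bb.2-/- it changed at 32 of 146, 19 upwards and 13 downwards (of all 38887 probes 26.5%, 5429 of them upwards, and 12.5% downwards). In both mutants the members' share lay below that of all probes. In MZdnmt3aa-/- tnnt2c (A_15_P120865) went down by 2.59 (-2.59) and the tropomyosin gene tpm2 and tnnt2e went up (2.02 and 1.77). In dnmt3bb.2-/- myl4 (A_15_P629371, -2.58) and tnnt2a (-1.34) went down, and myl9b (A_15_P627281, 1.13), tnnt3b (1.102) and myh6 (1.04) went up. The MZdnmt3aa-/- count was 50 without replicate 3 of 1 dpf and 21 without replicate 3 of 5-somite. For these 2 counts as well the share of all probes called is not given.

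At the early stages the members are mostly dim, and 1 array well above background was enough for a probe to be tested, so counts over the tested members are given with that limit. At 1–2 cell, before the embryo's own transcription, MZdnmt3aa-/- had 15 members higher and 5 lower of 127 (15.7%, against 57.3% of all probes called, 28.5% higher and 28.8% lower), median 0.96. Replicate 1 drove that median: without it 16 were higher and 23 lower of 99 (39.4%, against 54.2% of all probes), and the median was -0.27. ckma (A_15_P103741) shows the array, with 11.49, 7.34 and 6.81 in MZdnmt3aa-/-, 5.89, 6.53 and 5.83 in dnmt3bb.2-/-, and 7.15, 6.43 and 6.34 in WT. The epidermal markers spanned 7.03 to 15.37 (log2 of the summed level) over the MZdnmt3aa-/- arrays of 1–2 cell, against 8.74 to 9.94 in WT. Red blood cell markers spanned 6.85 to 13.53 (WT 8.16 to 9.37) and lens markers 8.33 to 13.46 (WT 7.90 to 8.58). Neuron markers spanned 10.94 to 11.79 (WT 10.58 to 10.69). The part of these markers in the result was not tested. dnmt3bb.2-/- had 10 higher and 14 lower of 97 (of all probes 31.4% were called, 15.1% higher and 16.3% lower). Its count was 11, 10 and 11 without WT replicates 1, 2 and 3 (12.5%, 10.4% and 11.3%, against 16.4%, 16% and 15.9% of all probes). It was 22, 35 and 13 without dnmt3bb.2-/- replicates 1, 2 and 3 (22.7%, 36.5% and 13.4%, against 29.5%, 46.6% and 21.8% of all probes).

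Light chains of non-muscle myosin, which every dividing cell uses, were among the members measured at 1–2 cell. The non-muscle regulatory light chain myl12.2 had 12.99, 13.02 and 13.09 in MZdnmt3aa-/-, 13.46, 12.998 and 13.42 in dnmt3bb.2-/-, and 14.14, 14.11 and 14.11 in WT at 1–2 cell, lower in both (-1.09, adjusted p = 2.43e-05, and -0.83, adjusted p = 0.00563). The non-muscle essential light chain myl6 had 13.68, 13.76 and 13.44 in MZdnmt3aa-/-, 13.65, 13.86 and 13.78 in dnmt3bb.2-/-, and 12.47, 12.56 and 12.44 in WT, higher in both (1.14 and 1.28). myl9b (A_15_P627281) had 8.64, 7.90 and 8.48 in MZdnmt3aa-/-, 7.01, 7.75 and 7.29 in dnmt3bb.2-/-, and 6.10, 5.95 and 6.05 in WT, higher in both (2.31 and 1.32). So light chains of non-muscle myosin moved in both directions at 1–2 cell.

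tnnt2c gave opposite readings in the mutants at 1–2 cell. A_15_P120865 had 8.92, 8.82 and 8.80 in MZdnmt3aa-/-, 2.25, 1.85 and 2.03 in dnmt3bb.2-/-, and 7.34, 7.22 and 7.26 in WT. It was higher in MZdnmt3aa-/- (1.57, adjusted p = 1.91e-05) and at least 15.9-fold lower in dnmt3bb.2-/-, where it was not well above background. At shield the same probe had 8.79, 8.67 and 8.19 in MZdnmt3aa-/-, 4.69, 5.01 and 4.501 in dnmt3bb.2-/-, and 6.20, 6.42 and 6.51 in WT (2.17 and -1.64), and at 5-somite 8.49, 8.89 and 8.005 in MZdnmt3aa-/-, 6.90, 6.22 and 6.46 in dnmt3bb.2-/-, and 6.54, 6.53 and 6.46 in WT, where it was higher in MZdnmt3aa-/- (1.96) and not called in dnmt3bb.2-/- (0.02). The other tnnt2c probe (A_15_P688821) fell by 0.89 in MZdnmt3aa-/- at 1–2 cell, the opposite call, though it read 0.47 after normexp background correction. In dnmt3bb.2-/- A_15_P688821 was not called at 1–2 cell and was called higher at shield and at 5-somite. The tnnt2c probes were thus called in opposite directions in dnmt3bb.2-/- at shield. In MZdnmt3aa-/- A_15_P688821 was called higher at shield and was not called at 5-somite.

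The fast troponin I genes showed sharp single-probe differences. tnni2a.3 had 3.41, 3.31 and 4.59 in MZdnmt3aa-/-, 3.65, 6.65 and 2.87 in dnmt3bb.2-/-, and 9.08, 9.03 and 8.89 in WT at 1–2 cell. All mutant arrays lay below WT, and the probe was well above background on 1 array of each mutant only. It was called lower in MZdnmt3aa-/- (adjusted p = 0.000152) and not in dnmt3bb.2-/- (adjusted p = 0.014), and no fold is given since most mutant signals were at background. tnni2b.1 had 6.81, 2.78 and 1.98 in MZdnmt3aa-/-, 8.56, 8.88 and 8.47 in dnmt3bb.2-/-, and 5.32, 5.67 and 5.04 in WT, higher in dnmt3bb.2-/- (3.29, adjusted p = 0.000181) and scattered in MZdnmt3aa-/-. The mitochondrial creatine kinase ckmt1 (A_15_P495472) had 2.78, 2.73 and 2.57 in dnmt3bb.2-/-, against 7.35, 6.97 and 7.11 in WT, at least 13.5-fold lower.

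At shield MZdnmt3aa-/- had 5 higher and 5 lower of 110 (of all probes 12.3%, 6.59% higher and 5.68% lower) and dnmt3bb.2-/- 13 higher and 27 lower of 96 (51.5%, 27.4% higher and 24.1% lower), so neither stood above its background. The MZdnmt3aa-/- count was 2, 1 and 4 without WT replicates 1, 2 and 3 (1.83%, 0.909% and 3.67%, against 2.78%, 2.57% and 2.75% of all probes). Without MZdnmt3aa-/- replicate 3 it was 17 (17.3%, against 15.9% of all probes). After normexp the MZdnmt3aa-/- count was split 3 higher and 7 lower, and that of dnmt3bb.2-/- 25 higher and 23 lower. tnni2b.1 was again higher in dnmt3bb.2-/-, with 7.62, 7.45 and 6.23 in MZdnmt3aa-/-, 9.71, 9.63 and 9.47 in dnmt3bb.2-/-, and 7.68, 7.70 and 7.57 in WT (1.95). The fast heavy chain myhc4 had 7.11, 7.06 and 7.23 in MZdnmt3aa-/-, 4.99, 4.80 and 3.99 in dnmt3bb.2-/-, and 5.74, 5.80 and 5.99 in WT, higher in MZdnmt3aa-/- (1.29) and lower in dnmt3bb.2-/- (-1.25). In dnmt3bb.2-/- tnni2a.3 was at least 8.38-fold, acta1b at least 5.30-fold and myhz1.2 at least 5.10-fold lower, and in MZdnmt3aa-/- myl4 was at least 3.69-fold lower.

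At 5-somite, when the first somites have formed, MZdnmt3aa-/- had 4 higher and 6 lower of 107 (of all probes 21.3%, 9.82% higher and 11.5% lower) and dnmt3bb.2-/- 11 higher and 12 lower of 103 (35.8%, 16.9% higher and 18.9% lower). The MZdnmt3aa-/- count was 2, 2 and 3 without WT replicates 1, 2 and 3 (1.89%, 1.87% and 2.8%, against 5.87%, 5.46% and 7.51% of all probes). It was 4, 4 and 31 without MZdnmt3aa-/- replicates 1, 2 and 3 (3.81%, 3.77% and 29.5%, against 9.58%, 10.9% and 39.2% of all probes). The dnmt3bb.2-/- count was 11, 9 and 12 without WT replicates 1, 2 and 3 (10.8%, 8.82% and 11.7%, against 25.2%, 23.6% and 27.7% of all probes). It was 22, 14 and 10 without dnmt3bb.2-/- replicates 1, 2 and 3 (21.6%, 13.7% and 9.8%, against 33%, 27.1% and 25.6% of all probes). At this stage the genotypes lay on separate slides, so slide and genotype cannot be told apart. The split in MZdnmt3aa-/- was 8 higher and 6 lower after quantile normalization and 2 higher and 11 lower after normexp, and in dnmt3bb.2-/- 9 higher and 16 lower after normexp. The tropomyosin gene tpm2 was the lowest called member in MZdnmt3aa-/-, with 9.15, 9.26 and 8.86 in MZdnmt3aa-/-, 11.17, 10.97 and 11.08 in dnmt3bb.2-/-, and 11.23, 11.44 and 11.36 in WT (-2.25, adjusted p = 0.000335). tnnt2e was lower as well, with 7.42, 7.04 and 6.58 in MZdnmt3aa-/-, 6.88, 8.20 and 8.04 in dnmt3bb.2-/-, and 8.80, 8.79 and 8.89 in WT (-1.81, and -1.13 without a call).

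myhc4 was the highest at 5-somite in MZdnmt3aa-/-, with 8.77, 8.63 and 7.85 in MZdnmt3aa-/-, 5.55, 4.97 and 5.06 in dnmt3bb.2-/-, and 5.86, 5.80 and 6.03 in WT (2.52, adjusted p = 0.00159, and -0.70 without a call). In dnmt3bb.2-/- myl9a (A_15_P153741) was the highest, with 9.16, 8.82 and 9.04, against 7.23, 7.17 and 6.93 in WT (1.89, adjusted p = 0.000143), 7.44, 7.58 and 7.66 being its values in MZdnmt3aa-/-. myh6 was the lowest there (-1.56, adjusted p = 0.000721), well above background on 2 of the dnmt3bb.2-/- arrays, with 4.60, 4.32 and 4.83 in dnmt3bb.2-/- and 6.02, 6.04 and 6.36 in WT.

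Over all 5 stages, 68 of 153 member probes were called at least once in MZdnmt3aa-/- and 15 at 2 or more stages, with 3 called in both directions (of all probes 60.7%, 24.1% and 4.91%, against 44.4%, 9.80% and 1.96% of the members). In dnmt3bb.2-/- 111 were called at least once and 56 at 2 or more stages, with 28 called in both directions (of all probes 69.5%, 43.0% and 11.1%, against 72.5%, 36.6% and 18.3% of the members). A call at 1 stage was therefore often not met at another, and 85 members in MZdnmt3aa-/- and 42 in dnmt3bb.2-/- were called at no stage.

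Other muscle genes, which the names of the members did not take in, were counted for comparison. These lists too were chosen with earlier results of these data known, so their counts are no independent support. The sarcomere list of these other genes also holds the slow myosin heavy chains smyhc1, smyhc2 and smyhc3, so the slow class of members lacks these. Genes of excitation-contraction coupling and calcium handling (55 probes), such as ryr1b, the calcium release channel, and the calcium pump gene atp2a1l, were tested at all 55 probes at both late stages. They had 0 higher and 1 lower call in MZdnmt3aa-/- at 1 dpf (median -0.48, with 20.8% of all probes called) and 0 higher and 12 lower at 2 dpf (median -0.44, with 12.6% of all probes called). In dnmt3bb.2-/- 31 were higher and 5 lower at 1 dpf (median 0.24, with 46.9% of all probes called), and 1 higher and 3 lower at 2 dpf (median -0.13, with 14.9% of all probes called). Genes of the sarcomere frame, such as desma (desmin) and actn2b (an actinin of the Z-disc), had 2 higher and 17 lower of 58 in MZdnmt3aa-/- at 2 dpf (median -0.40), where the higher ones were the slow myosins smyhc1 and smyhc3, and 3 higher and 9 lower of 60 in dnmt3bb.2-/- (median -0.22). Over these and the lists of energy genes and myogenic regulators together, 18 were called in MZdnmt3aa-/- at 1 dpf, against 20.8% of all probes. Without replicate 3 that count was 114, against 43% of all probes. At 2 dpf 43 were called, against 12.6% of all probes. The 2 dpf count was 3, 3 and 23 without WT replicates 1, 2 and 3 (3.4%, 3.09% and 7.64% of all probes). It was 9, 3 and 48 without MZdnmt3aa-/- replicates 1, 2 and 3 (5.05%, 3.6% and 17.2% of all probes).

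Energy genes of muscle had 0 higher and 6 lower of 19 in MZdnmt3aa-/- at 2 dpf (median -0.44) and 0 higher and 2 lower of 19 in dnmt3bb.2-/- (median -0.45). Of all probes at 2 dpf, 5.69% were called higher and 6.90% lower in MZdnmt3aa-/-, and 6.31% higher and 8.61% lower in dnmt3bb.2-/-. Myogenic regulators did not go the same way, with 5 higher and 1 lower of 39 in MZdnmt3aa-/- at 2 dpf (median -0.08) and 2 higher and 2 lower of 38 in dnmt3bb.2-/- (median 0.01). At 1 dpf the regulators had 21 higher and 4 lower of 41 in dnmt3bb.2-/- (median 0.29), where 22.8% of all probes were called higher and 24.1% lower.

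Markers of other cells were read on the same arrays at 2 dpf. The log2 of the summed red blood cell markers was 19.47 to 19.72 in MZdnmt3aa-/-, 20.45 to 20.82 in dnmt3bb.2-/- and 20.61 to 20.73 in WT, with 10 of 12 probes called lower and none higher in MZdnmt3aa-/-. Of all probes 6.90% were called lower in that mutant. Neuron markers had 17.23 to 17.71 in MZdnmt3aa-/-, 17.19 to 17.26 in dnmt3bb.2-/- and 17.42 to 17.50 in WT, and epidermis markers had 20.81 to 20.87 in MZdnmt3aa-/-, 20.66 to 20.84 in dnmt3bb.2-/- and 20.96 to 21.03 in WT. Lens markers had 19.93 to 20.04 in MZdnmt3aa-/-, 19.53 to 19.93 in dnmt3bb.2-/- and 19.84 to 20.06 in WT. Their part in the members' results was not tested.

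A timing index placed each array on the WT course from 1 dpf (0) to 2 dpf (1), as the median over 3292 probes other than the members that changed at least 4-fold in WT. The same WT arrays chose these probes and set the points 0 and 1, so WT lay near 0 and 1 by construction. WT and mutant arrays were thus not treated alike, and the permutation p-values below cannot show whether a mutant was early or late. At 2 dpf it was 0.824, 0.850 and 1.02 on the MZdnmt3aa-/- arrays and 0.879, 0.926 and 0.898 on the dnmt3bb.2-/- arrays, with differences from WT of -0.101 (exact two-sided permutation p = 0.4, n = 3 each) and -0.0991 (exact permutation p = 0.1, n = 3 each, the smallest this design allows). At 1 dpf it was -0.0834, -0.0689 and 0.167 in MZdnmt3aa-/- (difference 0.0047, exact permutation p = 1, n = 3 each) and 0.0113, 0.0133 and 0.0277 in dnmt3bb.2-/- (0.0171, exact permutation p = 0.1, n = 3 each). The MZdnmt3aa-/- array of highest index at 1 dpf was replicate 3, the array on which the fast genes were highest, and the part of timing in the members' results was not tested.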

How the data were processed

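Total RNA of pooled whole embryos was labelled with Cy3 and hybridised to 45 1-colour arrays on 12 slides. Per the file headers, the deposited intensity of a spot is Agilent Feature Extraction 12.0.3.1's processed signal, background-subtracted and spatially detrended by the authors. The deposited table holds the authors' values of the same arrays on a linear scale, scaled to a trimmed mean of 2500 without the lowest and highest 2%. Log2 was taken here. The scaling was repeated here from the scanner signal. Probe accessions were named through RefSeq, and members and lists were chosen with earlier results of these data known. A probe was tested where well above background on at least 1 array and with at least 2 values in each group. Each mutant was compared with WT at each stage, WT with its neighbouring stage, and effects between stages, by limma 3.58.1 in R 4.3.3 (lmFit and eBayes, Benjamini-Hochberg over all probes, called at 0.01). The timing index was compared by exact permutation. A bound on a fold uses the lowest signal well above background on each array. Named genes are up to 5 highest and 5 lowest called per comparison among members that every array of the brighter group measured above background, the 2 brightest of each role in WT at 2 dpf, and genes with probes called both ways. Scripts were tested on simulated data. Alternatives were the scaling (75th percentile, quantile), normexp with offset 50, filters on dim probes, 1 model over all arrays, a threshold of 0.05, slide and replicate as blocks, the deposited table and each array left out. The number of arrays limits the precision. Probe sequences and genome coordinates were not used here.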

Additional observations from a re-analysis of the deposited data

Results flagged for a closer look

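The effect of a mutant differed between neighbouring stages, by the limma test of the difference itself at an adjusted p of at most 0.01, at 10 members in MZdnmt3aa-/- from 5-somite to 1 dpf, at 32 in dnmt3bb.2-/- from 5-somite to 1 dpf and at 55 in dnmt3bb.2-/- from 1 dpf to 2 dpf. Values below are the later effect minus the earlier one, on the log2 scale. In MZdnmt3aa-/- from 5-somite to 1 dpf the difference was 2.02 at the tropomyosin gene tpm2, 0.92 at tpm3 and 0.83 at tpm4a. It was 1.77 at tnnt2e and -2.59 at tnnt2c, both troponin T genes, 0.66 at the non-muscle heavy chain myh9a, 0.51 at the light chain myl10 and 0.46 at mybpc2b.

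In dnmt3bb.2-/- from 5-somite to 1 dpf the difference was -2.58 at myl4, -1.34 at tnnt2a and -0.56 at myh7l among the heart genes, and 1.04 at myh6 and 0.89 at mybpc3. It was 1.13, 0.96 and 0.66 at 3 probes of myl9b and -0.93 at myl9a. The troponin genes tnnt3b, tnnt2c and tnni1c gave 1.102, 0.86 and -0.69, tpm4a gave 0.65 and myh9a gave 0.54.

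In dnmt3bb.2-/- from 1 dpf to 2 dpf the difference was -1.38 at ckmt2b, -1.19 at myl9a, -0.91 at tnnt2c, -0.68 at tpm1 and -0.50 at myh7l. It was 1.13 at myl4 and 0.75 at tnnt1.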

How the results depend on the processing

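Counts are members called, with the other muscle genes called after them where those moved too. For most settings the share of all probes called is not given beside them, so these counts show only how far the calls moved. With 1 model over all arrays, MZdnmt3aa-/- had 38 and 46 at 1–2 cell, 17 and 40 at shield and 18 and 21 at 2 dpf, and dnmt3bb.2-/- had 13 and 25 at shield, 11 and 17 at 5-somite, 11 and 17 at 1 dpf and 6 members at 2 dpf, and the WT step to 2 dpf had 64. At a threshold of 0.05, MZdnmt3aa-/- had 40 other muscle genes at 1–2 cell, 25 and 41 at shield, 32 and 50 at 5-somite, 35 and 35 at 1 dpf and 73 and 87 at 2 dpf. dnmt3bb.2-/- had 37 and 48 at 1–2 cell, 63 other muscle genes at shield, 45 members at 5-somite and 69 and 61 at 2 dpf. The stage differences at 0.05 were 29 and 28, then 2 and 2 in MZdnmt3aa-/-, and 51 and 74, then 73 other muscle genes, in dnmt3bb.2-/-.

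After normexp, MZdnmt3aa-/- had 12 and 6 at 1–2 cell, 13 other muscle genes at shield and 56 and 67 at 2 dpf, dnmt3bb.2-/- had 51 and 40 at 2 dpf, and the stage differences were 18 members, then 1 and 3, in MZdnmt3aa-/-, and 66 and 81 from 5-somite to 1 dpf in dnmt3bb.2-/- (52 higher and 14 lower). Quantile normalization gave 18 in MZdnmt3aa-/- at 2 dpf. The MZdnmt3aa-/- stage difference from 1 dpf to 2 dpf, 0 by limma with 16 at an unadjusted p under 0.05, was 1 after quantile normalization, 75th percentile scaling and the strict filter. At the WT steps, 75th percentile scaling gave 47 higher and 7 lower at shield, normexp 64 higher and 16 lower there, and quantile normalization 50 higher and 35 lower at 5-somite; the median of all probes at the shield step was 0.07 and 0.02 under the first and second of these, against -0.32. Quantile normalization split the MZdnmt3aa-/- stage difference to 1 dpf 8 higher and 6 lower.

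In most comparisons, samples with the same replicate number did not deviate together in every pair. In MZdnmt3aa-/- against WT at 1–2 cell they did, with correlations of 0.317, 0.156 and 0.099, though MZdnmt3aa-/- replicate 3 with WT replicate 2 gave 0.165. At the WT step to 2 dpf they did weakly (0.028, 0.022 and 0.0093). Whether the numbers pair the samples is thus not settled. With the replicate block MZdnmt3aa-/- had 1 and 8 at shield, 1 and 1 at 5-somite, 0 and 4 at 1 dpf (46 members at an unadjusted limma p under 0.05) and 0 and 1 at 2 dpf (84 members). dnmt3bb.2-/- had 9 and 7 at 1–2 cell, 10 and 28 at 5-somite, 42 members at 1 dpf and 0 and 5 at 2 dpf (77 members at an unadjusted limma p under 0.05), and stage differences were 6 other muscle genes in MZdnmt3aa-/- to 1 dpf and 30 in dnmt3bb.2-/- to 2 dpf. With slide as a fixed block, dnmt3bb.2-/- had 10 and 14 at 1–2 cell, 45 and 70 at 1 dpf and 1 and 2 at 2 dpf, and with slide as a random block MZdnmt3aa-/- had 1 and 1 at 5-somite and dnmt3bb.2-/- 17 at 2 dpf.

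With each array left out in turn, members called ranged from 17 to 39, 1 to 17, 2 to 31, 4 to 101 and 0 to 39 in MZdnmt3aa-/- over the 5 stages, and from 10 to 35, 32 to 39, 9 to 22, 56 to 71 and 2 to 16 in dnmt3bb.2-/-. The percent of all probes called then ranged from 44.2 to 61.9, 2.57 to 15.9, 5.46 to 39.2, 6.37 to 43 and 3.09 to 17.2 in MZdnmt3aa-/-. In dnmt3bb.2-/- it ranged from 15.9 to 46.6, 41.4 to 43.2, 23.6 to 33, 35.8 to 41.4 and 5.64 to 11.3. Other muscle genes ranged from 22 to 39, 7 to 24, 7 to 58, 6 to 114 and 3 to 48, and from 9 to 40, 31 to 37, 30 to 40, 83 to 93 and 8 to 23. The WT steps ranged from 52 to 64, 78 to 80, 128 to 136 and 106 to 122 members, and from 62 to 65, 97 to 104, 156 to 161 and 127 to 141 other muscle genes. Stage differences ranged from 7 to 50 and 0 to 16 members in MZdnmt3aa-/- and from 28 to 38 and 30 to 66 in dnmt3bb.2-/-, and from 5 to 47, 0 to 30, 42 to 53 and 25 to 51 other muscle genes.

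The timing index difference turned sign after normexp in MZdnmt3aa-/- at 5-somite (-0.0316) and 1 dpf (-0.0056) and in dnmt3bb.2-/- at 5-somite (-0.0160) and 1 dpf (-0.0032). With arrays left out it ranged from 0.0180 to 0.0628, -0.0765 to 0.0489 and -0.164 to -0.0638 over the later 3 stages in MZdnmt3aa-/-, and from -0.0143 to 0.0150, 0.0120 to 0.0208 and -0.112 to -0.0881 in dnmt3bb.2-/-. Of 177 results for named genes, 4 turned sign: after normexp myh11a at the WT shield step (0.036) and mybpc2a (0.57) and tnnt2c (0.47) in MZdnmt3aa-/- at 1–2 cell, and after quantile normalization mybpc2b at the WT 5-somite step (-0.16). Of their other values, 1586 kept direction and side of the threshold and 174 kept direction only, and with arrays left out 843 and 218 did. The 1586 include 177 values of the deposited table and 177 at a threshold of 0.05, which could not lose a call. Direction only was kept by 54 of 177 with the replicate block and 57 of 177 with 1 model over all arrays. With slide as a fixed block 16 kept direction only and 26 kept both. The causes were not tested. Dim probes at the early stages limit what their signals can show.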
